A study of Nothobranchius furzeri with 10 samples.

Results

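The 200 gene models described here were the most depleted in a pair of muscle libraries, exercised replicate 3 and unexercised replicate 4, of the short-lived annual fish Nothobranchius furzeri (the turquoise killifish). They were chosen from these same counts, out of 26739 gene models in all. For each gene model the lowest normalised level among the other 8 libraries was divided by the higher level in the pair, after 0.5 was added to both. The 200 highest log2 ratios, called the score, were taken from the 6795 gene models with at least 5 normalised CPM (counts per 1000000 after scaling by size factors) in each of the other 8 libraries, without the 100 gene models of highest mean. The low levels in the pair and the high levels in the other 8 libraries are therefore what chose the members and are given as a description, with no test.

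RNA was sequenced from muscle of exercised males kept in a swim tunnel (5 samples) and of unexercised males with no perturbation (5 samples), all aged 10 weeks. Both groups came from line 4010 and carry the transgene written Tg(mylz2:egfp,tfam). In it mylz2 is a gene for a light chain of myosin in fast muscle, egfp encodes a fluorescent reporter, and tfam encodes a factor that packages mitochondrial DNA and starts its transcription; no group without the transgene was analysed here. The labels give neither the muscle sampled, nor whether fish were pooled, nor whether each sample is a different animal. The p-values therefore cover only the spread among these samples, part of which may be technical.

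Skeletal muscle is a tissue in which a small number of transcripts, mainly those of sarcomere proteins and of enzymes that supply ATP, make up much of the messenger RNA. Fast fibres rely mostly on glycolysis and slow fibres mostly on mitochondrial respiration. The level of a transcript in a bulk sample reflects both how many cells of a type it holds and how much RNA each cell carries, which cannot be told apart here. The identifiers matched 0 of the 38438 genes in the RefSeq table of assembly NfurGRZ-RIMD1 and are not paired with names, so no role is given to any member. For the same reason neither markers of muscle or other cell types nor the transgene were analysed here, and their part in the results was not tested.

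Library totals ranged from 25927913 to 40433810 counts, lowest in exercised replicate 3 and next lowest, at 26869017, in unexercised replicate 4. The size factors used for scaling, the median over gene models of the ratio to their geometric mean, were 1.46 and 1.504 in that pair, against 0.756 to 1.14 in the other 8 libraries. Of all reads, 44.0% and 42.0% in the pair fell on the 100 most abundant gene models, against 62.9% to 68.0% in the other 8. Gene models with at least 1 count numbered 20387 and 20388 in the pair, against 19458 to 20139 in the others. The part of these library differences in the depletion was not tested.

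The 200 members together took 1.08% of the counts in exercised replicate 3 and 1.01% in unexercised replicate 4. They took 2.63% to 2.92% in the other 4 exercised libraries and 2.62% to 2.83% in the other 4 unexercised libraries. These shares are relative to each library's total, so they also depend on how much of it the most abundant gene models took. On the normalised scale, the median member stood at 12.7 CPM in exercised replicate 3 and 13.0 CPM in unexercised replicate 4, against 68.0 to 77.0 CPM in the other exercised and 68.0 to 73.2 CPM in the other unexercised libraries. Over all 6795 eligible gene models the median was 17.4 and 17.5 CPM in the pair and 18.9 to 20.6 CPM in the other 8. This scaling sets the typical gene model near equal between libraries, so only the small size of that difference follows from it. Eligible gene models had a floor in the other 8 libraries and none in the pair, which favours lower levels in the pair. The part of that floor in the difference was not tested. Scaled by library totals instead, the median of the eligible gene models was 31.0 CPM in both libraries of the pair and 14.7 to 19.4 CPM in the other 8. On that scale the median member stood at 22.7 CPM in exercised replicate 3 and 23.0 CPM in unexercised replicate 4, against 58.3 to 66.9 CPM in the other 8. The size of the depletion therefore depends on the scaling.

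**Figure D1:**
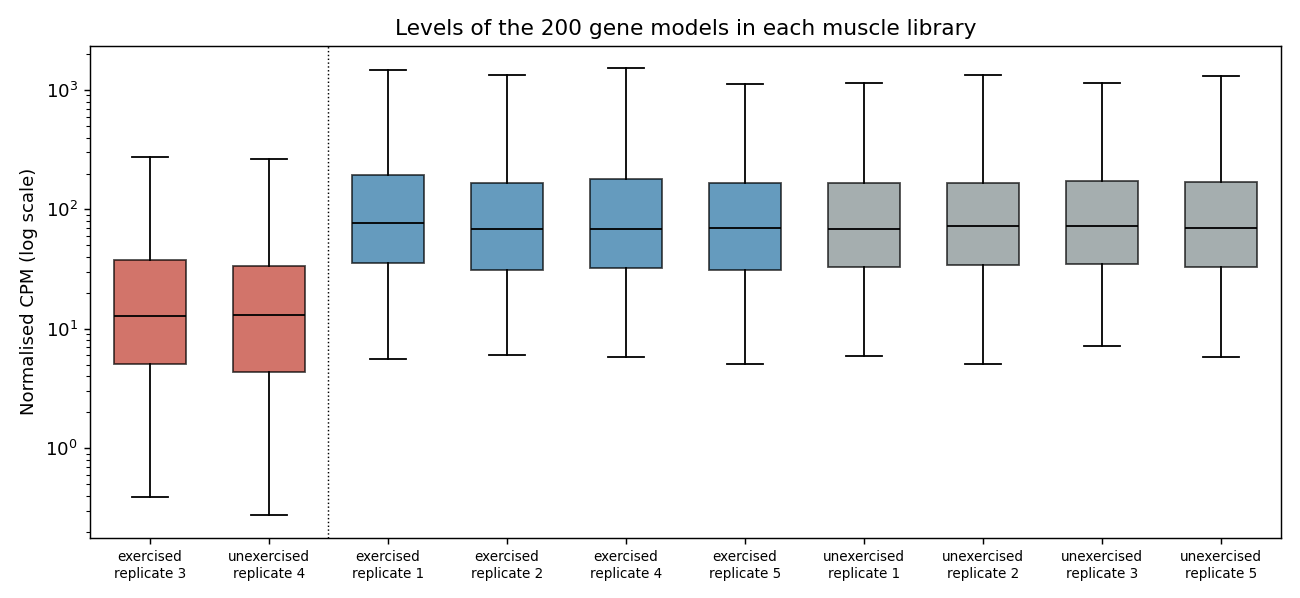
Normalised CPM (log scale) of the 200 gene models in each library; boxes give the quartiles and the median, and whiskers the lowest and highest member. The pair to the left of the dotted line has medians of 12.7 and 13.0 CPM, and the other 8 libraries, exercised and then unexercised, have medians of 68.0 to 77.0 CPM.

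The depletion was graded rather than complete. No member had a count of 0 in either library of the pair. The lowest member count there was 13 reads (exact Poisson 95% interval 6.92 to 22.2, counting error only), against a lowest count of 134 in the other 8 libraries. Only 15 members had fewer than 100 counts in both libraries of the pair, so the low levels rest on enough reads to be measured. Members kept a median of 19.2% of their level (quartiles 14.2% and 23.3%) in exercised replicate 3 and 18.0% (quartiles 14.0% and 22.4%) in unexercised replicate 4, taking the median of the other 8 libraries as the full level. The range was 2.54% to 29.6% in exercised replicate 3 and 1.15% to 28.6% in unexercised replicate 4. Both libraries stood at least 5-fold below the median of the other 8 for 99 members and at least 10-fold below it for 10.

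Scores ran without a break from the members into the rest. They ranged from 1.63 to 3.91 over the members, with a median of 1.85 that corresponds to a 3.60-fold gap between the pair and the lowest of the other 8 libraries. Scores of at least 2 were reached by 69 members and scores of at least 3 by 5. The last 10 members scored 1.63 to 1.65, and the 10 gene models just outside scored 1.61 to 1.63. Among all eligible gene models the median score was -0.15, and 765 of them (11.3%) scored at least 1. Of the 100 most abundant gene models that the rule left out, 27 scored at or above the last member, with a median of 1.02 and a maximum of 2.67 over the 100. The 100 kept a median of 36.3% of their level in exercised replicate 3 and 35.5% in unexercised replicate 4. All eligible gene models, chosen with a floor in the other 8 libraries but none in the pair, kept a median of 79.6% and 80.3% in the same libraries.

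**Figure D2:**
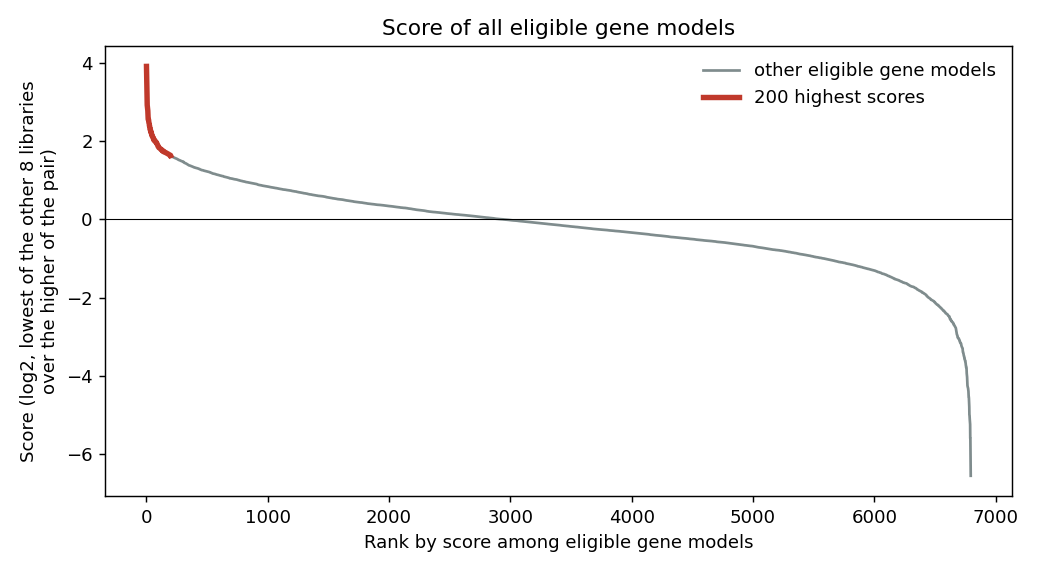
Score (log2) of the 6795 eligible gene models against their rank, with the 200 members in red and the others in grey. The curve falls from 3.91 to 1.63 over the members and crosses 0 after 2944 gene models.

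The member with the highest score, Nfu_g_1_023528, is shown because its gap was the widest. It had 6.01 normalised CPM in exercised replicate 3 and 3.22 in unexercised replicate 4 (278 and 153 reads). In the other exercised libraries it had 181, 142, 133 and 152 CPM, and in the other unexercised libraries 97.4, 153, 216 and 137 CPM. Its lowest library outside the pair, an unexercised one, lay more than 10-fold above both libraries of the pair, and the exercised and unexercised values outside the pair overlapped. Next was Nfu_g_1_010996, a less abundant gene model with 0.627 and 0.274 CPM in the pair (29 and 13 reads). It had 27.9, 14.4, 22.7 and 29.5 CPM in the other exercised libraries and 21.1, 24.9, 16.0 and 26.3 CPM in the other unexercised libraries. It kept the smallest share of any member in unexercised replicate 4, 1.15%, and again the groups outside the pair overlapped.

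Neither of these members passed the test of exercise when the pair was left out. The log2 fold change, exercised over unexercised, was 0.01 ± 0.212 (SE) for Nfu_g_1_023528 and 0.09 ± 0.229 (SE) for Nfu_g_1_010996, with edgeR adjusted p-values of 0.988 and 0.873. At the abundant end, the member with the highest median over the other 8 libraries had 163 CPM in exercised replicate 3 and 174 CPM in unexercised replicate 4. It had 1087 ± 179 CPM in the other exercised and 1103 ± 164 CPM in the other unexercised libraries (SD, n = 4 each). It scored 2.27, so strong depletion was also found in abundant members.

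The libraries of the pair came from different groups, and their member levels were close to each other. Exercised replicate 3 was within 1.5-fold of unexercised replicate 4 for 175 of the 200 members (87.5%). The same held for 91.4% of eligible gene models. Exercised replicate 3 was the higher for 118 members and the lower for 82. The median log2 difference, exercised replicate 3 minus unexercised replicate 4, was 0.04, with a range of -1.11 to 1.45. The rule chose gene models that are low in both libraries, so these values are a description. The share within 1.5-fold was no higher for members than for eligible gene models. The largest gap was in Nfu_g_1_015289, which had 8.27 CPM in exercised replicate 3 and 2.72 CPM in unexercised replicate 4.

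**Figure D3:**
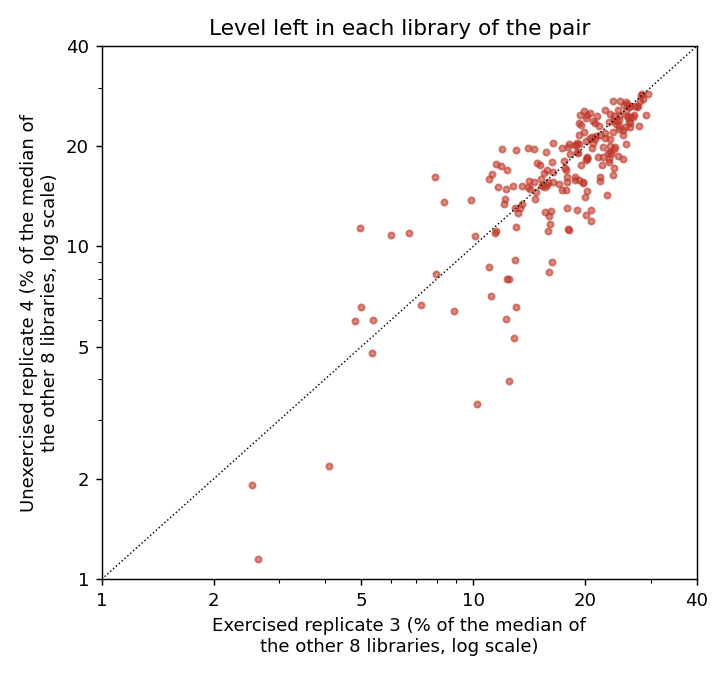
Level of each of the 200 members in exercised replicate 3 (horizontal) and in unexercised replicate 4 (vertical), as a percentage of its median over the other 8 libraries, on log scales; the dotted line marks equal values. Most members lie between 10% and 30% in both libraries and near the line, and the lowest are at 2.54% and 1.15%.

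Length was not used directly by the rule, but abundance in the other 8 libraries was. The lowest of those 8 levels is the upper part of the score's ratio, and the floor and the exclusion of the top 100 limit abundance. The abundance values below are therefore a description of the choice. CPM is not divided by length, so the length values that follow are not independent of the choice either. Members were more abundant than eligible gene models as a whole, with a median of 69.2 CPM (quartiles 33.4 and 168) over the other 8 libraries, against 19.4 CPM (quartiles 11.2 and 41.8). When the eligible gene models were split into 4 bins of equal size by abundance, the top bin, from 42.8 CPM upward, held 138 members (8.12% of 1699). The bins below it, in falling order of abundance, held 38, 16 and 8 members (2.24%, 0.942% and 0.471%). Across the 6795 eligible gene models, score and log2 level had a Spearman rho of 0.367. Within the 200 members it was -0.089. The added 0.5 shrinks positive and negative scores alike, most for gene models of low level.

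Member gene models had a median length of 2687 bases (quartiles 1536 and 5020), against 3457 bases (quartiles 1830 and 5694) over the eligible ones. Of 4 equal bins by length, the shortest, up to 1829 bases, held 65 members (3.83%) and the longest, from 5694 bases, held 37 (2.18%). Score and length had a Spearman rho of -0.174 over the eligible gene models and -0.03 over the members. Per length, the median member stood at 5.63 normalised RPKM (CPM per kilobase of gene model) in the pair and at 30.8 in the other 8 libraries. The highest value of any member per length was 349 in the pair and 1561 in the others, each taken separately.

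Outside the pair the members were about as steady as other gene models. The highest of the other 8 libraries exceeded the lowest by a median of 1.59-fold for members and 1.596-fold for eligible gene models, and by less than 2-fold for 160 of the 200. The median SD of log2 CPM was 0.226 for members and 0.224 for eligible gene models. The rule's use of the lowest of the 8 libraries favours steady gene models. Together the members stood highest in exercised replicate 1, by a median log2 deviation of 0.16 from their own medians, and between -0.04 and 0.04 in the other 7. For eligible gene models the deviation in exercised replicate 1 was 0.019. That library was the highest of the 8 for 30.0% of members and 18.5% of eligible gene models. Pairs of members were on median weakly correlated, though more than pairs of eligible gene models. Over the 19900 pairs of members the median Pearson's r across the 8 libraries was 0.10, and 3.17% of pairs exceeded 0.8, against 0.0075 and 2.99% for pairs of eligible gene models. These correlations are a description over 8 shared libraries.

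The group labels, exercised or unexercised, were not used by the rule, but the pair it used has 1 library in each group. The study's own comparison between these groups was tested over all gene models that passed the filter on low counts, and all 200 members passed. With all 10 libraries, no member reached an adjusted p under 0.05 (edgeR, quasi-likelihood, Benjamini-Hochberg), and the background was 0% of 15337 gene models. The lowest adjusted p of a member was 0.475. Before adjustment, 2 of the 200 members and 1461 of the 15337 gene models had an edgeR p under 0.05. DESeq2 called 0 members, where its background was 2.91% of 13360 gene models. Limma voom with quality weights called 4 members (2%), where its background was 11.9% of 15337 gene models. Members had a median standard error of 0.526 on the log2 scale with 10 libraries and 0.152 without the pair, whereas all tested gene models had 0.295 and 0.194. With 1 library of the pair in each group, the chosen low values lie on both sides of this comparison, and the median log2 fold change of the members was 0.01. Selecting such values widens the members' spread within both groups, which makes calls among them rare by construction. With 10 libraries, the few member calls and their shares beside the background cannot show whether members respond to exercise.

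Without the pair, with 4 libraries a group, 8 members were called, 5 higher and 3 lower in exercised muscle. The 5 higher members are 2.5% of the 200, where the background over 15200 tested gene models was 3.96%, and 5.28% over the 6795 eligible ones. The 3 lower members are 1.5%, where the background was 2.38% over tested and 2.4% over eligible gene models. Both shares lay below the background but rest on only 5 and 3 members, and the difference from the background was not tested. Before adjustment, 29 of the 200 members and 3280 of the 15200 tested gene models had an edgeR p under 0.05. The rule used the lowest of these 8 libraries, so these shares and counts are not independent of the choice. All 4 exercised libraries lay on 1 side of all 4 unexercised libraries for 13 members (6.5%), 9 higher and 4 lower, where the background was 13.2% of tested gene models. That background was not taken over the eligible gene models alone, so it is not a like set for the members. The median log2 fold change was 0.01 (quartiles -0.12 and 0.15) for members and -0.01 (quartiles -0.23 and 0.22) for tested gene models. More than 1.5-fold differences were found for 14 members (7%), against 9.96% of eligible gene models, and more than 2-fold differences for 4 (2%), against 2.71%.

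The count of 8 depended on single libraries. Leaving out exercised replicate 1 gave 15 member calls (7.5%, where 11.7% of all tested gene models were called), and leaving out exercised replicate 2 gave 4 (2%, background 2.33%). Leaving out exercised replicate 4 gave 6 (3%, background 2.64%), and replicate 5 also 6 (3%, background 4.58%). Only the fit without exercised replicate 4 had a member share above its background, which is taken over all tested gene models. Of the 6795 eligible gene models, from which the members were chosen, that fit called 233, a larger share than the 3% of members. Leaving out unexercised replicate 1 gave 5 (2.5%, background 3.43%) and replicate 3 also 5 (2.5%, background 2.61%). Leaving out unexercised replicate 2 gave 4 (2%, background 3.74%) and replicate 5 also 4 (2%, background 3.64%). With library totals in place of TMM factors, 3 members were called higher and 1 lower (2%, background 4.04%). DESeq2 called 10 higher and 6 lower (8%, background 10.3%).

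The member with the lowest p among those higher in exercised muscle was Nfu_g_1_001702. Outside the pair its exercised libraries held 68.1, 62.2, 84.0 and 69.0 CPM and its unexercised libraries 28.5, 23.8, 35.7 and 26.4 CPM. All 4 exercised values lay above all 4 unexercised values. The log2 fold change was 1.31 ± 0.149 (SE; edgeR adjusted p = 0.00191). In the pair it had 6.38 CPM in exercised replicate 3 and 3.22 CPM in unexercised replicate 4. With all 10 libraries its log2 fold change was 1.30 ± 0.662 (SE) and did not pass (edgeR adjusted p = 0.622).

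Next was Nfu_g_1_015289, the member whose 8 libraries outside the pair spanned the widest range, 5.08-fold. Exercised libraries held 108, 144, 145 and 134 CPM and unexercised libraries 28.7, 37.7, 28.5 and 53.7 CPM, again with no overlap. The log2 fold change was 1.83 ± 0.217 (SE; edgeR adjusted p = 0.00259), and 1.83 ± 0.772 (SE; edgeR adjusted p = 0.475) with all 10 libraries.

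Among members lower in exercised muscle, the one with the lowest p stood at 18.9, 17.7, 16.1 and 23.4 CPM in the exercised libraries and at 42.2, 48.5, 53.2 and 55.6 CPM in the unexercised ones. The groups did not overlap, and the log2 fold change was -1.40 ± 0.147 (SE; edgeR adjusted p = 0.0013). In the pair it had 3.98 CPM in exercised replicate 3 and 4.405 CPM in unexercised replicate 4. With all 10 libraries its log2 fold change was -1.35 ± 0.600 (SE; edgeR adjusted p = 0.512). The next one averaged 134 ± 31.6 CPM in the exercised and 210.7 ± 13.0 CPM in the unexercised libraries (SD, n = 4 each). Its log2 difference was -0.66 ± 0.168 (SE), with an edgeR adjusted p of 0.043. This call was lost with all 10 libraries (edgeR adjusted p = 0.956), with library totals (edgeR adjusted p = 0.0668), in limma on recomputed RPKM (adjusted p = 0.134 and 0.144) and without any of 6 single libraries, exercised replicates 2 and 4 and unexercised replicates 1, 2, 3 and 5.

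**Figure D4:**
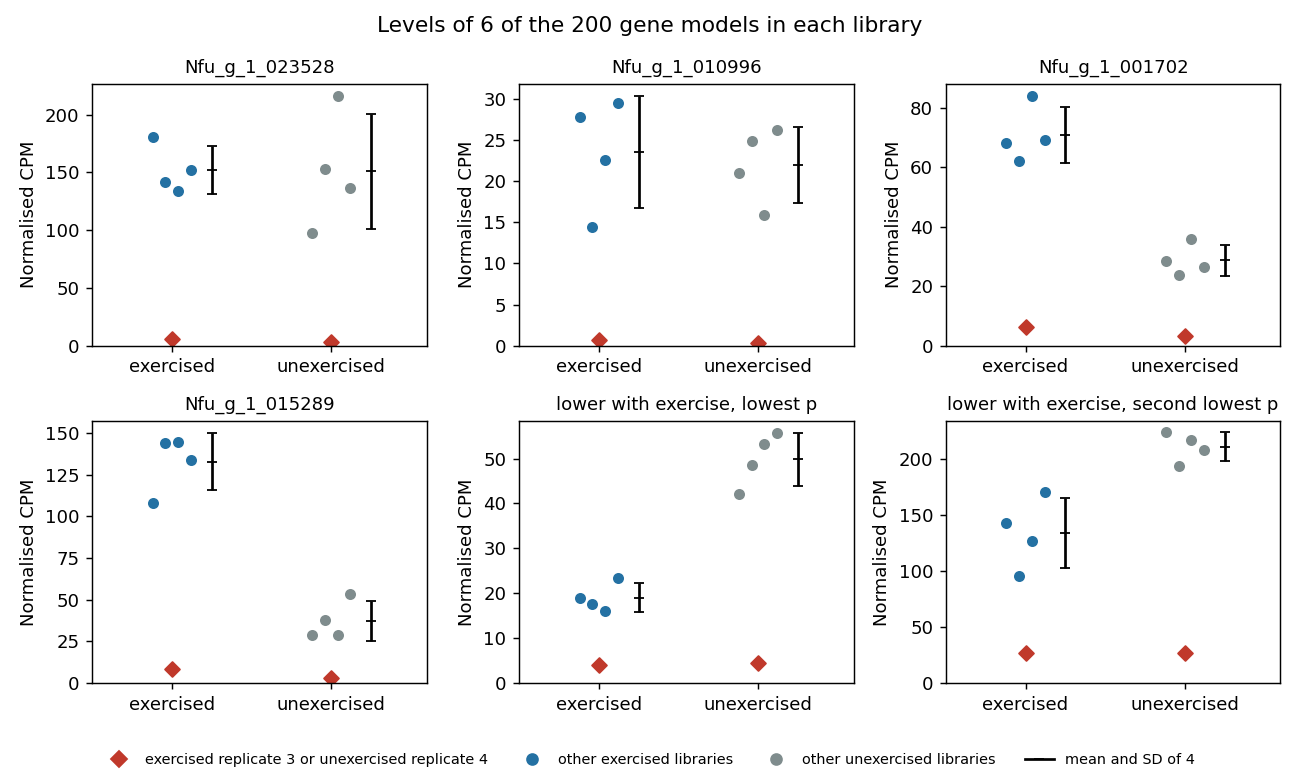
Normalised CPM of 6 members in exercised (left) and unexercised (right) libraries; circles are libraries outside the pair, bars their mean and SD (n = 4), and red diamonds exercised replicate 3 and unexercised replicate 4. Nfu_g_1_023528 and Nfu_g_1_010996 overlap between groups, Nfu_g_1_001702 and Nfu_g_1_015289 are higher in every exercised circle, and the last panels show the members lower in exercised muscle with the lowest p-values.

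**Figure D5:**
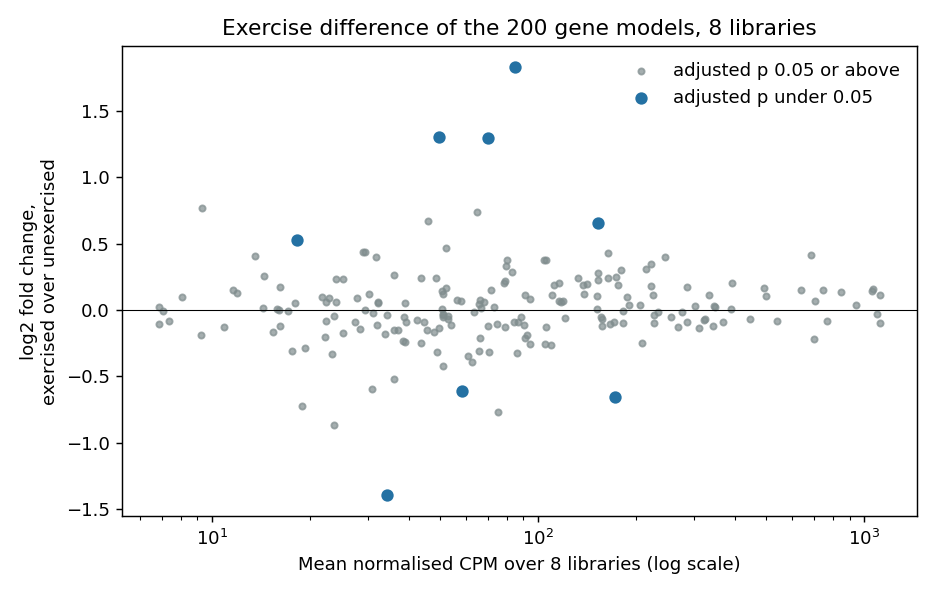
Log2 fold change, exercised over unexercised, of the 200 members against their mean normalised CPM over 8 libraries (log scale), without the pair; large blue points have an edgeR adjusted p under 0.05. There are 5 above 0 and 3 below, and most members lie between -0.5 and 0.5.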

How the data were processed

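Read counts were deposited by the authors for 26739 gene models in 10 columns, each mapped to a sample by its title. Per the submitters' processing notes, the tools were STAR 2.4.1d, featureCounts 1.4.6-p4 and bcl2fastq 1.8.4; their settings are not given. Build, annotation, strandedness and the handling of shared reads are not given in the sources used here. Gene models that overlap, lie antisense or have near copies are therefore uncertain. The RPKM deposited by the authors matched 1 length per gene model only with library totals running down the rows (median spread 0.0076%, against 17.8% with each column's own total), so they served only to give lengths.

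Counts were divided by median-of-ratios size factors (17400 gene models counted in all libraries) and scaled to the mean total. The exercise contrast used edgeR 4.0.16 in R 4.3.3: quasi-likelihood test, TMM factors, filterByExpr, robust estimation, group as the only term, adjusted p under 0.05. Each SE is the log2 fold change over the square root of F. DESeq2 1.42.0, limma 3.58.1 (voom, or log2 of recomputed RPKM plus 0.1 or 1), other factors, no filter and left-out libraries were alternatives. The tests were checked on simulated data in which no libraries diverged as the pair did. That check therefore does not cover the effect of the pair on the fit of 10 libraries. Members, rules and the fit of 8 libraries were chosen with earlier results of these data known. Identifiers were printed for the 2 highest scores and the 2 lowest p-values among members higher in exercised muscle; others are given by value. Members singled out for the highest level, or for the widest gap or range, were chosen after their values were seen. The planned marker and gene lists need names and were not analysed here. Same-group libraries differed far beyond sampling noise (chi-square at least 28.2 per degree of freedom in all 20 pairs), so none was treated as a duplicate. Reads without molecular identifiers are not independent molecules, so intervals cover counting error only.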

Additional observations from a re-analysis of the deposited data

Results flagged for a closer look

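Of 18 checks for a single library far from its own group, 4 found one. All 4 were exercised replicate 3 or unexercised replicate 4. The checks on single members left the pair out, so they could not flag it. The members took 1.08% of the counts in exercised replicate 3 and 1.01% in unexercised replicate 4. Their median level there was 12.7 and 13.0 normalised CPM. The members were chosen for low values in these libraries, so these flags follow from the choice and no chance rate applies to them. The share of counts and the median level describe the same members, so they are not separate findings.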

How the results depend on the processing

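The membership held under most settings. With the rule on TMM factors 194 of the 200 members were chosen again, and 180 with library totals, 193 with 1 added in place of 0.5, 189 with a floor of 1 CPM, 174 with the top 100 kept in, and 187 to 196 without any single library of the other 8. The median score of the 200, 1.85, was 0.87 with library totals, since totals scale the pair up. All 200 scores stayed above 0, but only 76 members kept a gap of at least 2-fold with library totals. The exercise contrast with 10 libraries, where the selection itself widens the members' spread, called 0 members, and 4 with voom (11.9% of all gene models called). It called 0 members without any single library, where 1.58% of all gene models were called without exercised replicate 3, 0.546% without unexercised replicate 4 and 0% otherwise. With 8 libraries it called 8 members (6.34% of all gene models), 4 with library totals (4.04%), 16 with DESeq2 (10.3%) and 4 to 15 without any single library (2.33% to 11.7%). All 8 were among the 16. For Nfu_g_1_023528, not called, the log2 fold change of 0.01 was -0.024 with library totals and -0.14 to 0.24 without any single library. For Nfu_g_1_010996, also not called, it was -0.035 to 0.26 without any single library. The cause was not tested. No paired analysis was made because the labels give no pairing of samples between groups. The replicate numbers used here follow the order of the sample records and only name the samples.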
